A study of Mus musculus with 12 samples.

Results

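A set of 10 genes of the innate inflammatory response was followed through 12 libraries of sorted mouse spinal cord cells: the pattern sensors Cd14, Tlr2 and Nlrp3, the cytokines Tnf, Il1a and Il1b, the chemokines Ccl3, Ccl4 and Ccl6, and the activation marker Cd83. They, and the gene lists below, were taken by name with earlier results of these data known. The shares of all tested genes set beside them therefore describe them and test nothing. The 10 are among 35675 genes to which the deposited transcripts could be assigned, and 9 of them were among the 13456 genes with enough counts to be tested. Il1b did not reach that limit. Every mouse carried CnpCre and the Rosa26-StopFlox-TdTomato reporter, and the labels name no other allele in the 4 controls. The 4 RalA cKO mice also carried RalAflox/flox, and the 4 RalAB cKO mice carried RalAflox/flox together with RalBflox/flox. Rala and Ralb encode Ras-related small GTPases that act in vesicle traffic. Cnp is a gene of the oligodendrocyte lineage, so the Cre, and with it the red reporter, is directed to those cells and not to immune cells. Cells were dissociated enzymatically at postnatal day 10 and sorted for the reporter and a large forward scatter, and each library came from 1 mouse. No RalB single mutant was among the samples analysed here. The labels name no comparison of these genes. The values answer how far each gene differed between the genotypes.

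In the central nervous system these genes are mainly products of microglia and other macrophages. CD14 and Toll-like receptor 2 recognise microbial lipids and products of damaged cells at the cell surface. The Toll-like receptors then signal through adaptor proteins to the transcription factor NF-kB. NF-kB turns on Tnf, Il1a, Il1b, Nlrp3 and several chemokine genes, together with inhibitors that end the signal. NLRP3 assembles the inflammasome, the complex in which caspase-1 processes the precursor of interleukin-1 beta for release.

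The promoters are shown because these genes are textbook targets of NF-kB and several are induced from promoters with a TATA box. A promoter sequence in the RefSeq table (GRCm38.p6) was found for 7 of the 10 genes, and none for Ccl4, Cd14 and Cd83, which are named only. In the 250 bases before the start, the letters TATAAA were looked for on both strands, and so was the kappa-B consensus of NF-kB, which is 10 bases long. No match of one overlapped a match of the other. TATAAA was found in Tnf, Il1b and Il1a. Its first base lay 29, 31 and 32 bases before the start in that order, and 12.37% of all 32851 promoters in the table held it somewhere in a window of that length. The 3 cytokine promoters are on the minus strand, at chr17:35202008-35202257 for Tnf, chr2:129371140-129371389 for Il1b and chr2:129309973-129310222 for Il1a, and are printed 5′ to 3′ with the TATAAA in capitals.
Tnf: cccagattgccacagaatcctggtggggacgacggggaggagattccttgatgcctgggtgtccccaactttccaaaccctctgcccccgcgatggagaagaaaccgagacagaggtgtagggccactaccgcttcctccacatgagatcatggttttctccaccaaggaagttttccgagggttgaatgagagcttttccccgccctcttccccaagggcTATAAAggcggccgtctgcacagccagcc
Il1b: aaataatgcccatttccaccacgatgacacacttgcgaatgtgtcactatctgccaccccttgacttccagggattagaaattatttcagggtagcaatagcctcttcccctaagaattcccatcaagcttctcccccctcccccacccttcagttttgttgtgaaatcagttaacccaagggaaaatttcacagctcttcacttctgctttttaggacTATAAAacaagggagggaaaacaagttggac
Il1a: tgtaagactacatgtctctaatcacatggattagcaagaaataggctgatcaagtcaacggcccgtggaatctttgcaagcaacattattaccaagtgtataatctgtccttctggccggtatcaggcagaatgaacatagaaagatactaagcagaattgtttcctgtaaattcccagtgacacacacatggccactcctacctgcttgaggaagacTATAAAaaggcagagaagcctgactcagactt
The kappa-B consensus was matched in Tlr2, in overlapping matches whose first bases lay 173 and 172 bases before the RefSeq start. That start lies inside the gene model, and the counted transcript Tlr2-201 begins at 83841767, closer to the matches. A match was also found before the second of the listed Nlrp3 starts, 186 bases from it, and 7.25% of all promoters held the consensus. This second start is that of the Nlrp3 transcript that took most of the counts. The 5 other promoters held no kappa-B match in this window. The 2 sensor promoters follow with the kappa-B letters in capitals, Tlr2 from the minus strand (chr3:83841768-83841858) and Nlrp3 from the plus strand (chr11:59541319-59541567), each without the bases that the gene model counts as transcribed.
Tlr2: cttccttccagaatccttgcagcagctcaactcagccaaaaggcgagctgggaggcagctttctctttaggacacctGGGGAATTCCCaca
Nlrp3: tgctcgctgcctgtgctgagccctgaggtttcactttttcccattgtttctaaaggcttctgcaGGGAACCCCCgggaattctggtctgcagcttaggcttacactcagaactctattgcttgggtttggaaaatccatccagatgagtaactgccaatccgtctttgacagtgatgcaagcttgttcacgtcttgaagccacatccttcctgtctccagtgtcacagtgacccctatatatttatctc

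The libraries held 10.9 M to 15.41 M assigned counts. A list of 12 oligodendrocyte genes, among them Mbp and Mog, took 10.66 to 12.51% of the counts in every library, while the 10 genes described here took 0.00101 to 0.00675% in the controls, 0.00141 to 0.00214% in the RalA cKO and 0.0105 to 0.0414% in the RalAB cKO. The 10 pan-myeloid genes (C1qa, C1qb, C1qc, Csf1r, Tyrobp, Fcer1g, Aif1, Laptm5, Ptprc and Cd53) took 0.0193 to 0.046%, 0.0117 to 0.0208% and 0.0905 to 0.159%, so the myeloid share was small everywhere and higher in all 4 RalAB cKO libraries. Of 13 granulocyte and lymphocyte genes none reached the count limit, and S100a9, Retnlg, Ly6g and Cd3e had no count in any group. The 11 border macrophage and monocyte genes together took at most 0.00118% of the counts in any library. On the first principal component of all genes (34.77% of the variance), RalAB cKO mouse 1 lay at 24.95 and its 3 group mates at 44.12 to 59.82, and control 1 was the control farthest from them. Rala differed by -0.31 ± 0.15 (SE, log2) in the RalA cKO and by -0.39 ± 0.15 in the RalAB cKO against control, with adjusted p of 0.236 and 0.0832 (edgeR). Ralb differed by -0.32 ± 0.15 in the RalA cKO, where it is not floxed, and by -0.28 ± 0.15 in the RalAB cKO (adjusted p 0.229 and 0.216), and by 0.04 between the mutants. None of these passed the test, and counts summed over a whole gene may include transcripts that lack a deleted exon.

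In the RalAB cKO, 8 of the 9 tested genes rose against control, from 5.38-fold for Ccl3 to 22.1-fold for Cd14, where 9.39% of all tested genes rose. Their median log2 fold change was 2.92, against -0.01 for all tested genes. With Il1b counted, which is not among the tested genes, 8 of the 10 had all 4 RalAB cKO levels above all 4 control levels. Of all tested genes 9.87% did. Il1a was not called, and Nlrp3 was called although its groups overlapped. Differences were tested with edgeR's quasi-likelihood test and Benjamini-Hochberg adjustment over all 13456 genes at 0.05, levels are CPM (counts scaled to a common library size by TMM), and each error of a log2 fold change is its standard error. In sorted bulk cells, fewer cells of a type and less RNA per cell cannot be told apart.

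**Figure D1:**
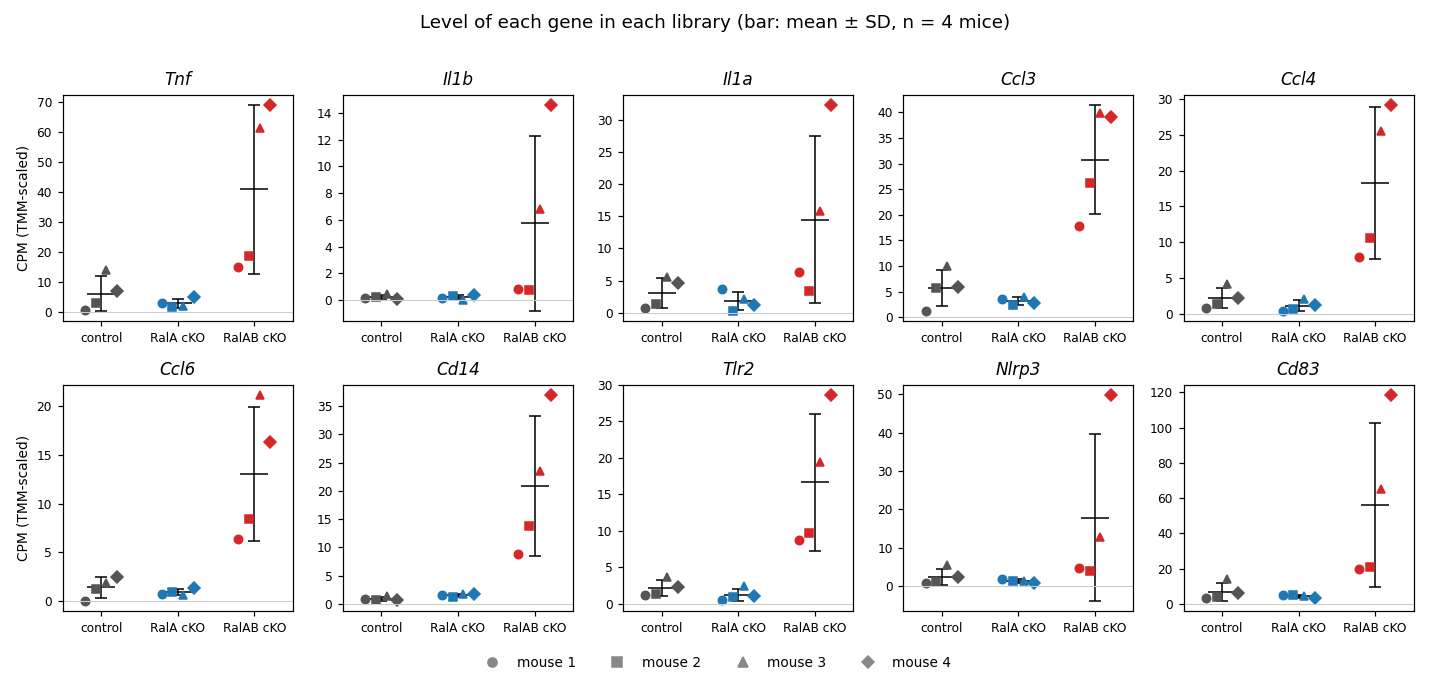
CPM of the 10 genes (linear axes) in 4 control, 4 RalA cKO and 4 RalAB cKO libraries. Points are single mice, and the bar with whiskers is the mean ± SD (n = 4). The RalAB cKO libraries are the highest in every panel except where their lower mice meet the controls, as for Il1a (3.43 against a highest control of 5.5) and Nlrp3 (3.92 against 5.44), and mice 3 and 4 lie above mice 1 and 2 in all 10 panels.

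Among the sensors, Cd14 had the largest difference from control, while against RalA cKO the 3 sensors lay between 3.69 and 3.74 on the log2 scale. The gene, on chromosome 18 at 36725067 to 36726798 (minus strand, GRCm38), encodes the surface co-receptor that hands bacterial lipopolysaccharide to TLR4. Control mice 1 to 4 had levels of 0.917, 0.714, 1.38 and 0.637 CPM, and RalA cKO mice 1 to 4 levels of 1.61, 1.24, 1.83 and 1.71 CPM. In RalAB cKO mice 1 to 4 it was 8.91, 13.8, 23.5 and 37 CPM. The lowest RalAB cKO mouse thus stood well above the highest of the other 8, whereas RalA cKO and control mice overlapped. These levels rest on 7 to 22 counts per control library, 14 to 24 per RalA cKO library and 120 to 486 per RalAB cKO library. Cd14 rose by 4.47 ± 0.42 on the log2 scale against control (adjusted p = 1.52e-05) and by 3.69 ± 0.40 against RalA cKO (adjusted p = 2.5e-05).

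Tlr2 encodes a receptor for bacterial lipoproteins that works as a dimer with TLR1 or TLR6, and lies on chromosome 3 at 83836272 to 83841767 (minus strand). It was measured at 1.24, 1.43, 3.75 and 2.27 CPM in the controls and at 0.536, 0.973, 2.44 and 1.07 CPM in the RalA cKO. The RalAB cKO values were 8.76, 9.72, 19.4 and 28.6 CPM, without overlap with either group. The rise was 2.92 ± 0.47 against control (adjusted p = 0.000854) and 3.72 ± 0.51 against RalA cKO (adjusted p = 0.000207).

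Nlrp3, the inflammasome sensor, spans 59541568 to 59566956 on chromosome 11 (plus strand). Control levels were 0.852, 1.11, 5.44 and 2.46 CPM, and RalA cKO levels 1.88, 1.42, 1.31 and 0.783 CPM. The RalAB cKO mice gave 4.83, 3.92, 12.8 and 49.8 CPM. Mice 1 and 2 of the RalAB cKO lay below control mouse 3, and mouse 4 was far above all others. Nlrp3 rose by 2.83 ± 0.85 against control (adjusted p = 0.0418) and by 3.74 ± 0.93 against RalA cKO (adjusted p = 0.0235). Both calls were fragile. Against control it was lost without control 1, 2 or 4, without any single RalA cKO library, and without RalAB cKO 3 or 4, at values of 1.53 (without RalAB cKO 4) to 2.97. It was 3.61 without control 3. Against RalA cKO it was lost without any single RalA cKO library, and was 2.42, still called, without RalAB cKO 4. With limma-voom neither was called (2.52 and 3.18, adjusted p = 0.167 and 0.132).

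The cytokine Tnf, a trimeric ligand of the receptors TNFR1 and TNFR2, lies on chromosome 17 at 35199381 to 35202007 (minus strand). Controls gave 0.852, 3.09, 14 and 7.18 CPM and RalA cKO mice 3.22, 1.95, 2.01 and 5.05 CPM. RalAB cKO mice gave 15.1, 18.6, 61.2 and 69 CPM, so the lowest of them was just above control mouse 3. The log2 fold change was 2.70 ± 0.76 against control (adjusted p = 0.0346) and 3.72 ± 0.82 against RalA cKO (adjusted p = 0.0147). The call against control was lost when control 2, control 4, RalA cKO 1, RalAB cKO 3 or RalAB cKO 4 was left out, at log2 fold changes of 2.49, 2.78, 2.69, 2.44 and 2.33. It was 3.49 without control 3. The call against RalA cKO was lost without RalA cKO 1 (3.74) or RalA cKO 2 (3.56).

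Il1a and Il1b encode the 2 agonists of the interleukin-1 receptor and are neighbours on chromosome 2, both on the minus strand, at 129299610 to 129309972 and 129364570 to 129371139, 54.6 kb apart. Il1a was measured at 0.721, 1.27, 5.5 and 4.55 CPM in the controls and at 3.66, 0.265, 2.18 and 1.21 CPM in the RalA cKO. In the RalAB cKO it was 6.31, 3.43, 15.8 and 32.4 CPM, with mouse 2 inside the range of the controls. Il1a did not pass the test against control (2.27 ± 0.84, adjusted p = 0.0863) or against RalA cKO (2.99 ± 0.89, adjusted p = 0.0545). The second was called without control 1 (2.99) or without RalAB cKO 2 (3.32). With DESeq2 both were called (adjusted p = 0.0492 and 0.00957). The second was also called with library totals (0.03), transcript length offsets (0.0306), protein-coding genes only (0.0499) and protein-coding transcripts only (0.0436), but not with limma-voom (0.116) or without the count limit (0.137). Of Il1b, the controls held 2, 3, 7 and 1 counts and the RalA cKO libraries 2, 3, 0 and 5 counts. The RalAB cKO libraries held 11, 9, 85 and 192 counts, or 0.817, 0.735, 6.79 and 14.6 CPM, and nearly all of them came from mice 3 and 4. The highest control stood at 0.438 CPM and the highest RalA cKO library at 0.356 CPM, below the lowest RalAB cKO library. With the count limit lifted, so that 24366 genes were tested, Il1b gave 4.56 ± 1.13 against control (adjusted p = 0.0343) and 4.73 ± 1.17 against RalA cKO (adjusted p = 0.0462). In that same fit Tnf against control (adjusted p = 0.0724) and Nlrp3 against control (0.0989) and against RalA cKO (0.0647) were no longer called. Il1a and Il1b each overlap a gene on the opposite strand (Gm14023 and Il1bos). The library kit keeps strand, but no source used here says whether the counting used it.

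The chemokine genes lie together on chromosome 11. Ccl6 (83587882 to 83593087, minus strand) is 54.8 kb from Ccl3 (83647844 to 83649355, minus strand), and Ccl3 is 13.2 kb from Ccl4 (83662584 to 83664683, plus strand). CCL3 and CCL4 attract monocytes and other leukocytes. CCL6 is a rodent chemokine made mainly by myeloid cells. Ccl3 was at 1.24, 5.63, 9.94 and 6 CPM in the controls and at 3.58, 2.3, 3.93 and 2.85 CPM in the RalA cKO, against 17.8, 26.1, 40 and 39.1 CPM in the RalAB cKO. Ccl4 was at 0.852, 1.43, 4.13 and 2.27 CPM in the controls, at 0.447, 0.707, 2.1 and 1.28 CPM in the RalA cKO, and at 7.87, 10.6, 25.6 and 29.2 CPM in the RalAB cKO. In neither gene did the RalAB cKO overlap another group. Ccl6 was at 0.0655, 1.27, 1.88 and 2.55 CPM in the controls and at 0.715, 0.973, 0.698 and 1.35 CPM in the RalA cKO. Its RalAB cKO levels, 6.38, 8.41, 21.1 and 16.3 CPM, were also above all others, and the value of control 1 rests on 1 count. Against control, Ccl6 rose by 3.20 ± 0.58, Ccl4 by 3.06 ± 0.55 and Ccl3 by 2.43 ± 0.45 (adjusted p 0.00207, 0.00209 and 0.00275). Against RalA cKO the rises were 3.77 ± 0.61, 4.00 ± 0.59 and 3.28 ± 0.48 (adjusted p 0.000914, 0.000542 and 5e-04). Ccl6 overlaps E230016K23Rik on the opposite strand.

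Cd83, on chromosome 13 at 43784775 to 43803132 (plus strand), encodes a surface protein known from activated dendritic cells and induced in activated microglia. Controls gave 3.21, 3.65, 13.9 and 5.91 CPM and RalA cKO mice 4.83, 4.86, 4.63 and 3.06 CPM. RalAB cKO mice gave 19.9, 21.2, 65.3 and 118.6 CPM, all above the other groups. Cd83 rose by 3.06 ± 0.67 against control (adjusted p = 0.0105) and by 3.70 ± 0.70 against RalA cKO (adjusted p = 0.00628). The first was 3.72 without control 3 and 2.40 without RalAB cKO 4, and the second was 3.03 without RalAB cKO 4. All 3 were still called.

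Between the 2 mutants, 8 of the 9 tested genes were higher in the RalAB cKO, where 7.03% of all tested genes were. Counting Il1b, which is not among the tested genes, 9 of the 10 did not overlap, against 9.65% of all tested genes. The log2 fold changes ran from 2.99 for Il1a, which was not called, to 4.00 for Ccl4, with a median of 3.72 against -0.03 for all tested genes. This comparison shares its RalAB cKO libraries with the one against control.

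Between RalA cKO and control, 0 of the 9 tested genes passed the test (edgeR), where 2.78% of all tested genes were called. At an unadjusted p under 0.05 the count was also 0, and DESeq2 called 0. Of the log2 fold changes 8 were below 0, from -1.03 ± 0.83 for Tnf to -0.57 ± 0.66 for Ccl6, and 52.5% of all tested genes were below 0. Cd14 was the exception at 0.77 ± 0.46 (adjusted p = 0.323). This comparison shares its controls with that of the RalAB cKO, so the 2 are not independent. Ccl3 was called lower in the RalA cKO when control mouse 1 was left out (-1.20, adjusted p = 0.0382) or control 1 and RalAB cKO 1 together (-1.18, adjusted p = 0.0102), and stood at -0.85 ± 0.48 (adjusted p = 0.304) in the full set. Without control 3 it was -0.42 (adjusted p = 0.667), and the values of the others moved towards 0 or past it: Tnf to -0.22, Il1a to -0.22, Nlrp3 to -0.12, Ccl4 to -0.39, Ccl6 to -0.39, Tlr2 to -0.38 and Cd83 to 0.03. Cd14 was then at 1.04.

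**Figure D2:**
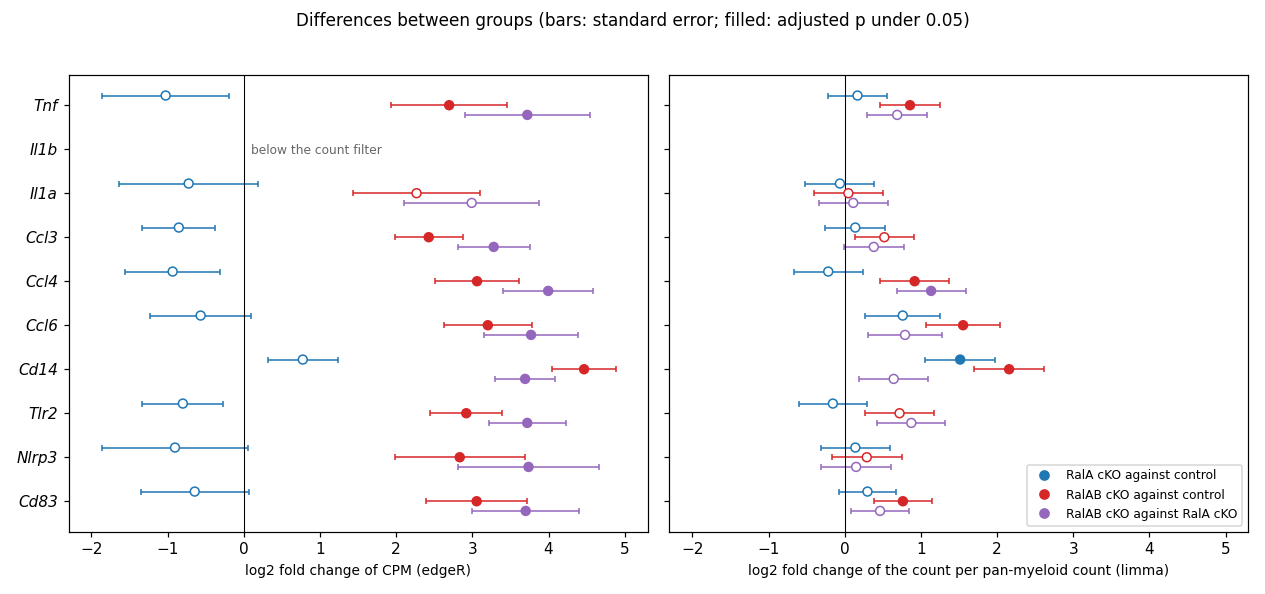
Log2 fold change (x axis) ± SE of each gene in the 3 comparisons, per library (left, edgeR) and per count of 10 pan-myeloid genes (right, limma), filled where the adjusted p was under 0.05. On the left the RalAB cKO values lie between 2.27 and 4.47 against control. On the right they lie between 0.05 and 2.16, with Cd14 the highest.

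The RalAB cKO mice differed widely among themselves. Mice 3 and 4 were above mice 1 and 2 for all 10 genes, and mouse 4 was the highest for 8. The ratio of the highest to the lowest RalAB cKO mouse was largest for Il1b (19.9), Nlrp3 (12.7) and Il1a (9.45), and smallest for Ccl3 (2.24) and Tlr2 (3.27). Pan-myeloid genes took 0.0905 and 0.108% of the counts in mice 1 and 2 and 0.147 and 0.159% in mice 3 and 4, in the same order. Per 1000 counts of these pan-myeloid genes, mouse 4 was also the highest for 8 of the 10 genes. On that scale the RalAB cKO mice ran from 3.52 to 29.8 for Nlrp3 and from 21.3 to 25.5 for Ccl3. Among the controls, mouse 3 was the highest for 9 of the 10 genes and mouse 1 the lowest for 8. Control 3 also had the highest share of pan-myeloid (0.046%), astrocyte (0.116%) and neuron genes (0.0178%) of the controls. A list of 15 immediate-early and heat-shock genes that tissue dissociation can induce, among them Fos, Jun and Egr1, took 0.0473 to 0.0903% of the counts in the controls, 0.0457 to 0.0621% in the RalA cKO and 0.0879 to 0.1145% in the RalAB cKO. Of these, 10 rose in the RalAB cKO against control. The part of the dissociation-linked genes in the differences was not tested.

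Pan-myeloid genes moved in the same direction as the inflammatory genes: all 10 rose in the RalAB cKO against control, with a median log2 fold change of 2.21, and of 10 homeostatic microglia genes 8 rose, with a median of 1.33. Each inflammatory gene was therefore also expressed per 1000 counts of the 10 pan-myeloid genes in the same library. On this scale the log2 ratio, with 0.5 added to each count, was tested with limma across all 13456 genes. The denominator is shared by all genes, and the fit then used almost no spread of each gene's own. Whether edgeR, with the myeloid count as offset, made the same call is given beside it. Its errors were close to those of limma (0.53 and 0.49 for Ccl6 in the RalA cKO against control), so agreement is no independent check. The SD of Ccl6 within groups was 1.13 on the log2 scale, and the limma fit used 0.69. For Cd14 these were 0.37 and 0.65. That second fit was chosen after the data had been seen.

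Per 1000 myeloid counts, Cd14 stood at 4.77, 2.48, 3.34 and 2.35 in the controls and at 8.45, 9.99, 8.94 and 8.87 in the RalA cKO. The RalAB cKO gave 10.7, 12.4, 15 and 22.1. The 3 groups did not overlap, and the means were 3.24 ± 1.11, 9.06 ± 0.66 and 15 ± 5.03 (SD, n = 4). In the RalA cKO, Cd14 was the only called gene of the 9, at 1.52 ± 0.46 (limma, adjusted p = 0.0197) and 1.48 ± 0.51 (edgeR, adjusted p = 0.0461), where 17.7% of all tested genes were called higher on this scale and 18.5% did not overlap. A count of 1 in 9 is not above that background. On this scale 6 of the 12 oligodendrocyte genes were called higher in the RalA cKO as well. The Cd14 call was lost without control 2, control 3, control 4, RalA cKO 2 or RalA cKO 4, at values between 1.39 and 1.54. In the RalAB cKO, Cd14 rose by 2.16 ± 0.46 against control (limma, adjusted p = 2.85e-06) and by 2.22 ± 0.49 with edgeR (adjusted p = 6.94e-06). Between the mutants its difference of 0.64 ± 0.46 was not called (limma, adjusted p = 0.163).

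Per myeloid count, 5 of the 9 genes were called higher in the RalAB cKO than in control, where 0.32% of all tested genes were. The denominator itself rose in the RalAB cKO, so genes of other cells fell on this scale. All 12 oligodendrocyte genes were called lower, with a median of -2.31. The share of 0.32% is therefore held low by the denominator and is no background for myeloid genes. Besides Cd14, Ccl6 (1.55 ± 0.49), Ccl4 (0.92 ± 0.45) and Cd83 (0.76 ± 0.38) were called by limma (adjusted p 0.00166, 0.0448 and 0.0453) and by edgeR (adjusted p 0.035, 0.0495 and 0.0286). Tnf (0.86 ± 0.39, limma adjusted p = 0.0307) was not called by edgeR (0.59 ± 0.40, adjusted p = 0.141). Of these 5, Cd14 alone had groups that did not overlap, and Cd14 alone was still called without control 1. Without control 1, whose Ccl6 value rests on 1 count, Ccl6 was at 0.67. Single libraries ended the other calls too: control 1 or 2 and RalAB cKO 3 or 4 for Tnf, the same 4 and RalA cKO 3 for Ccl4, and for Cd83 those 4, control 4 and RalA cKO 1, 3 or 4. The lowest values were 0.30 for Tnf, 0.74 for Ccl4 and 0.41 for Cd83. The other 4 tested genes were not called. Tlr2 was at 0.72 ± 0.45, Ccl3 at 0.52 ± 0.39, Nlrp3 at 0.29 ± 0.46 and Il1a at 0.05 ± 0.45 (limma, adjusted p 0.114, 0.19, 0.533 and 0.917). Il1a stood at 3.74 to 16.8 per 1000 myeloid counts in the controls and at 3.08 to 19.4 in the RalAB cKO. Ccl3 varied little in the RalAB cKO on this scale, at 21.3, 23.5, 25.5 and 23.4, inside a control range of 6.47 to 24.2 for all but 1 mouse.

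Between the mutants, per myeloid count, 0.0966% of all tested genes were called higher in the RalAB cKO, a share again held low by the denominator. Only Ccl4 of the 9 was called (1.13 ± 0.45, limma adjusted p = 0.0128, edgeR adjusted p = 0.026). It was at 2.35, 5.71, 10.2 and 6.65 per 1000 myeloid counts in the RalA cKO and at 9.43, 9.53, 16.3 and 17.5 in the RalAB cKO, so the groups overlapped. Leaving out RalA cKO 1 (0.75) or RalAB cKO 4 (0.98) ended that call. Ccl3 (14.8 to 19.2 in the RalA cKO, 21.3 to 25.5 in the RalAB cKO) and Cd14 did not overlap between the mutants. Neither was called (limma, adjusted p 0.335 and 0.163). The share of all tested genes without overlap was not determined for this comparison. Homeostatic microglia genes, over the same denominator, had a median of -0.78 in the RalAB cKO against control, and 5 of 10 were lower. With the 10 homeostatic genes as the denominator instead, 7 of the 9 inflammatory genes were called higher by limma in the RalAB cKO than in control, and 7 than in RalA cKO. The log2 fold change of Cd14 against control was then 3.15. Homeostatic genes rose less against control than pan-myeloid genes (median 1.33 against 2.21), so every gene's log2 fold change is higher over them. The share of all tested genes called on that scale was not determined, and the edgeR offset fit was not run there.

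**Figure D3:**
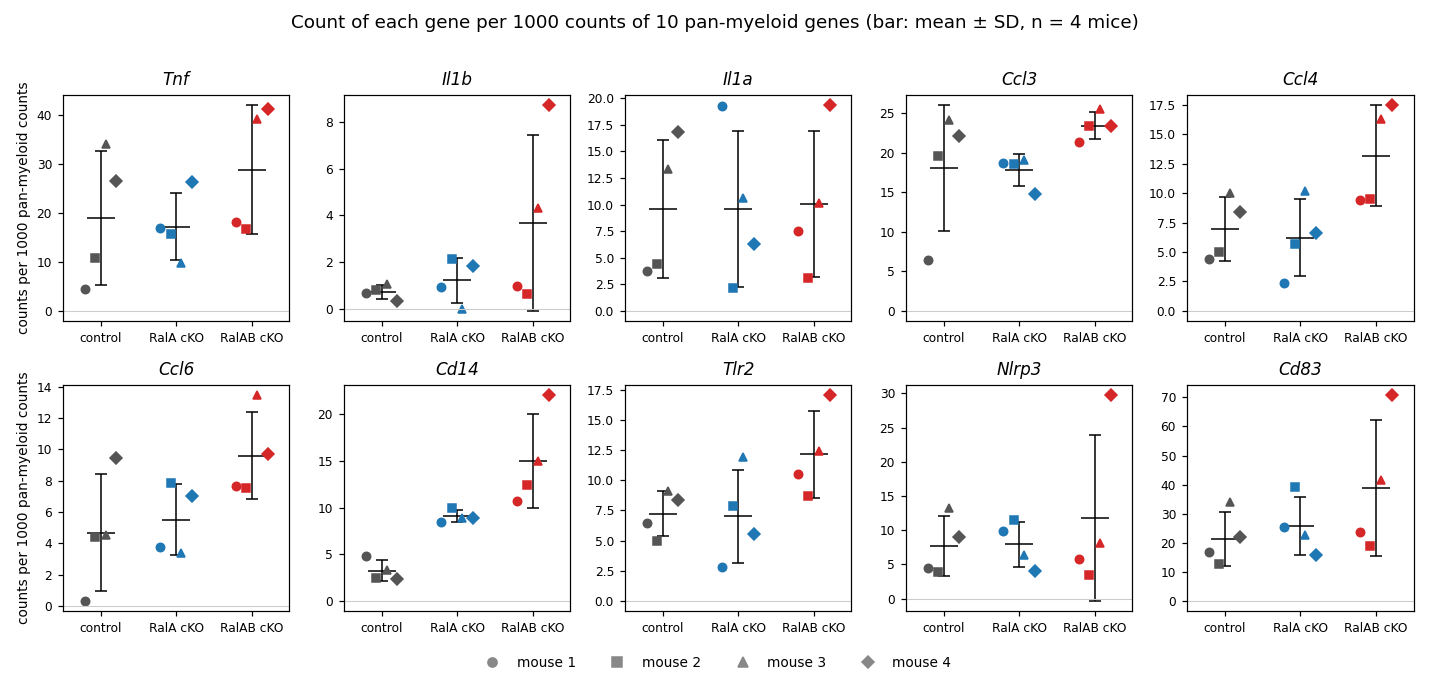
Counts of each gene per 1000 counts of 10 pan-myeloid genes (linear axes), with 1 point per mouse and the mean ± SD (n = 4). Cd14 is the panel in which the 3 groups do not overlap (2.35 to 4.77, 8.45 to 9.99 and 10.7 to 22.1), and in most other panels the groups overlap.

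Compared per length, in TPM, the deposited length-scaled abundance, Ccl3 was the highest in every group. In the RalAB cKO it stood at 75.7 ± 20.6 TPM and Ccl4 at 53 ± 27.7 (SD, n = 4). Tnf (41.5 ± 26.3) and Cd83 (39.2 ± 31) followed, then Cd14 (21.4 ± 11.6), Ccl6 (20.5 ± 10.4), Il1a (11.1 ± 9.43), Tlr2 (8 ± 3.99), Nlrp3 (7.2 ± 8.31) and Il1b (7.08 ± 7.87). Neighbours in this order differed by less than the larger of their SDs. In the controls Ccl3 was at 16.1 ± 10.7 TPM, ahead of Tnf (7.54 ± 7.21) and Ccl4 (7.3 ± 5.13), and Il1b, the lowest, at 0.322 ± 0.242 TPM. Cd14 was the eighth there at 1.22 ± 0.53 TPM and the fifth in the RalAB cKO.

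For most genes a single protein-coding transcript took the counts. Cd83 was different: its retained-intron transcript Cd83-202 took 91.1% of the gene's counts in the controls, 91.4% in the RalA cKO and 86.2% in the RalAB cKO, so most Cd83 counts were assigned to a model that is not protein coding. Ccl6-202, another retained-intron transcript, took 31.6, 58.9 and 40.9% of the Ccl6 counts. The Nlrp3 transcript Nlrp3-201 took 99.8% of the counts in the RalAB cKO, 87.9% in the controls and 63% in the RalA cKO, where Nlrp3-202 took 33.3%, all of it from 21 counts in 1 mouse. With protein-coding transcripts only, which was added after seeing the data, Cd83 rose by 3.63 ± 0.93 in the RalAB cKO against control (edgeR, adjusted p = 0.0177) and Ccl6 by 2.99 ± 0.71 (adjusted p = 0.0106), and 8 of the 9 genes were again called.

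The rest of the pathway changed in part in the RalAB cKO. Of the 96 tested genes in 6 lists 32 (33.3%) rose against control and 3 (3.12%) fell, where 9.39% of all tested genes rose and 9.02% fell. A gene could meet the count limit through the RalAB cKO alone. Tnfaip2 did, at no more than 0.625 CPM in the controls and 0.268 CPM in the RalA cKO. List genes low in every group were left out. The shares and medians of the lists in both comparisons of the RalAB cKO are therefore tilted towards genes that rose. Of 19 other tested cytokines and chemokines 6 rose and 2 fell, with a median log2 fold change of 0.74. The chemokine Ccl9 rose from 2.46 ± 0.95 to 10.1 ± 2.91 CPM (SD, n = 4; log2 2.03 ± 0.31, adjusted p = 0.000346), Tgfb1, an anti-inflammatory cytokine, from 4.96 ± 1.88 to 15.9 ± 6.14 CPM (1.67 ± 0.30, adjusted p = 0.00112), and Osm, a cytokine of the IL-6 family, by 2.64 ± 0.50 (adjusted p = 0.00193). The 2 that fell were Cxcl12, by 1.61 on the log2 scale (adjusted p = 0.00113), and Cx3cl1, the ligand of the microglial receptor CX3CR1, by 1.56 (adjusted p = 0.0146). Cx3cl1 was named after its value was seen. Il6, Il10 and Csf2 did not reach the count limit.

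Of 12 receptors and decoys 6 rose and the others did not pass the test, with a median of 0.82. The risers included Tnfrsf1b, the gene of TNFR2, from 3.13 ± 0.71 to 18.9 ± 2.78 CPM (2.59 ± 0.45, adjusted p = 0.00141), the interleukin-10 receptor chains Il10ra (1.78 ± 0.33) and Il10rb (1.40 ± 0.29), and Il6ra (1.29 ± 0.28). Il1r1, the interleukin-1 receptor gene, was below the count limit. Il1rn, which encodes the natural antagonist of that receptor, had no count in any control or RalA cKO library and stood at 0.327 to 0.989 CPM in the RalAB cKO, without a test.

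Of 15 other pattern sensors 8 rose and the others did not pass the test, with a median of 1.15. Those with the smallest p were Unc93b1, a chaperone of endosomal Toll-like receptors (1.02 ± 0.14), Cd180 (1.77 ± 0.24), Clec7a, the beta-glucan receptor dectin-1 (3.09 ± 0.49), and Tmem173, the gene of STING (1.83 ± 0.31), with adjusted p from 0.00014 to 0.00075. The partners of CD14 at the lipopolysaccharide receptor, Tlr4 and Ly96, did not reach the count limit. Tlr4 stood at 0.0655 to 0.5 CPM in the controls, at 0.0894 to 0.569 CPM in the RalA cKO and at 0.594 to 1.14 CPM in the RalAB cKO. Ly96 was not higher in the RalAB cKO, at 0 to 0.476, 0.0873 to 0.715 and 0.0799 to 0.304 CPM in that order.

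The adaptors, kinases and NF-kB subunits, most of which every cell type expresses, had the lowest median of the 6 lists, 0.20. Of 25 tested only 2 rose, which is not above the background of 9.39%. They were Nfkb2 (0.73 ± 0.18, adjusted p = 0.00933) and Ticam2, an adaptor of TLR4 (1.501 ± 0.45, adjusted p = 0.0295). Among NF-kB inhibitors and early feedback genes 7 of 15 rose, with a median of 0.76. Zfp36, whose product destabilises Tnf mRNA, went from 45.2 ± 14 to 123 ± 23.9 CPM (1.45 ± 0.21, adjusted p = 0.00042), and Tnfaip8l2 (2.21 ± 0.38), Tnip1 (0.76 ± 0.16) and Tnfaip2 (3.11 ± 0.66) rose too. Of 10 genes of the inflammasome and of cytokine release 3 rose and 1 fell. Pycard, the inflammasome adaptor ASC, rose by 1.61 ± 0.25, Gsdmd, the pore-forming gasdermin D, by 1.52 ± 0.30 and the channel gene Panx1 by 0.62 ± 0.12 (adjusted p 0.000443, 0.00269 and 0.00277). P2rx7, the ATP-gated channel upstream of NLRP3, fell by 0.44 (adjusted p = 0.0474). Casp1 and Casp4 did not reach the count limit. Per myeloid count, the medians of the 6 lists in the RalAB cKO against control lay between -1.96 and -0.72, below that of the inflammatory genes (0.76). The denominator rose, so genes that other cells express fell on this scale, with a median of -2.31 for the oligodendrocyte list. These medians therefore do not set the inflammatory genes against their pathway within myeloid cells.

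**Figure D4:**
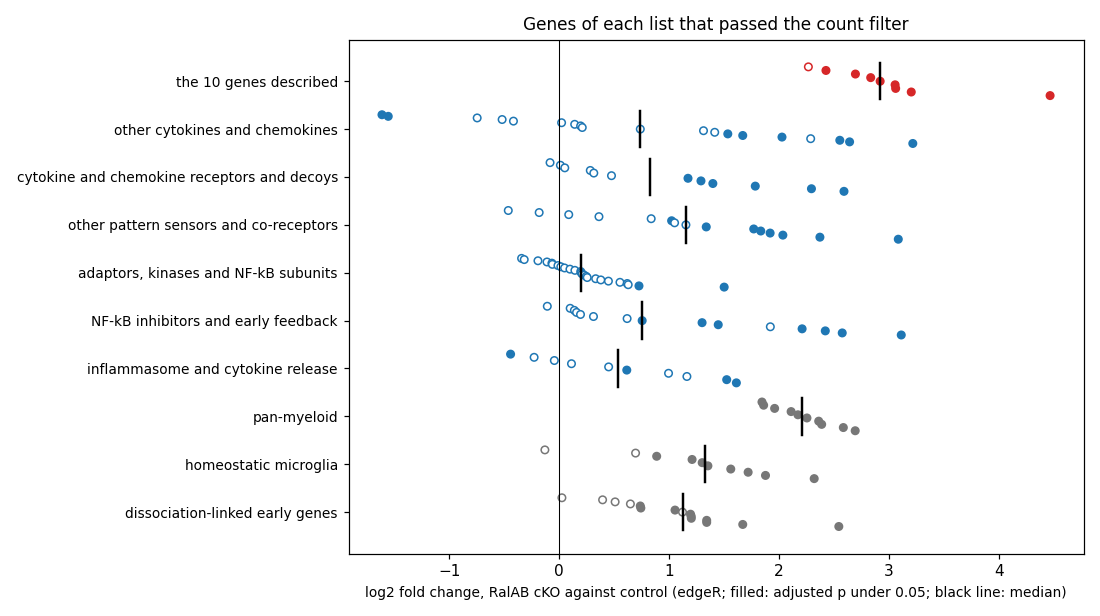
Log2 fold change (x axis) in the RalAB cKO against control for every tested gene of each list, filled where the adjusted p was under 0.05 (edgeR), with the median as a black line. The median is 2.92 for the inflammatory genes described, 2.21 for pan-myeloid genes, 1.33 for homeostatic microglia genes and 0.20 for adaptors, kinases and NF-kB subunits.

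In the RalA cKO, 2 of the 96 genes of these lists (2.08%) were called against control, which is not above the 2.78% of all tested genes. Il6ra fell by 1.36 on the log2 scale (adjusted p = 0.0277) and Cd180, which encodes a TLR4-like surface receptor, by 1.06 (adjusted p = 0.0393). The list medians in this comparison were -0.48 for other cytokines and chemokines, -0.28 for receptors, -0.75 for pattern sensors, -0.03 for adaptors, -0.47 for NF-kB inhibitors and -0.30 for the inflammasome, against -0.02 for all tested genes. In the lists without a call the 2 most abundant genes were Csf1 (0.07 ± 0.10) and Il18 (0.04 ± 0.26), Tab2 (-0.19 ± 0.13) and Rela (0.22 ± 0.14), Nfkbib (0.09 ± 0.16) and Tollip (0.13 ± 0.10), and Panx1 (-0.01 ± 0.12) and Adam17 (-0.26 ± 0.16). Between the mutants, 9, 7, 8, 2, 7 and 6 genes of the lists, in the order above, were higher in the RalAB cKO (39 of 96, 40.6%, against 7.03% of all tested genes), and 1 cytokine gene, Cxcl12, was lower, where 4.5% of all tested genes were. The smallest p of each list belonged to Tgfb1 (2.53 ± 0.31), Il6ra (2.65 ± 0.31), Cd180 (2.83 ± 0.26), Ticam2 (2.73 ± 0.51), Zfp36 (2.09 ± 0.22) and Gsdmd (2.59 ± 0.33).

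Outside the 10 genes, the protein-coding genes whose log2 CPM over the 12 libraries was most like the mean of the inflammatory genes were Gpr84, Nfkbia, Tyrobp, Nckap1l, Arhgap45 and Ccl9. Pearson's r was 0.990, 0.982, 0.979, 0.979, 0.978 and 0.977, and r of the deviations from the group means was 0.968, 0.959, 0.905, 0.907, 0.890 and 0.884. These values describe 12 points that share the genotype groups and the myeloid share of each library. Gpr84, a receptor for medium-chain fatty acids found on myeloid cells, averaged 5.22 CPM in the controls, 3.38 in the RalA cKO and 38.2 in the RalAB cKO. Nfkbia, the gene of the NF-kB inhibitor IkB alpha, averaged 23.2, 16.2 and 57.1 CPM. Among the 9 tested inflammatory genes, r of the deviations from the group means ran from 0.284 to 0.973 over the 36 pairs, with a median of 0.71, and was 0.973 for Nlrp3 with Cd83.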

How the data were processed

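RNA was measured in 12 libraries, 1 per mouse (4 per genotype). The authors deposited 1 file per library with an estimated count and a TPM value per transcript, and per the submitters' processing notes Trimmomatic 0.36, kallisto 0.44 and GRCm38.p6 were used, in roles not stated there. Transcript lengths in the deposited files entered 1 alternative. The estimated counts of 121104 of 121843 transcripts were assigned to genes by GENCODE vM21, summed and rounded. The other transcripts held 0.2185 to 0.2772% of the counts.

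Genes with at least 10 counts in enough libraries (filterByExpr, total 15) were tested over all 12 libraries with edgeR 4.0.16 (TMM, robust quasi-likelihood) in R 4.3.3, with Benjamini-Hochberg adjustment at 0.05. Ratios to the summed pan-myeloid count, with 0.5 added, were tested with limma 3.58.1. For 5 of the 9 genes the estimated prior degrees of freedom of that fit were infinite. Both steps were tested on simulated data in which the pan-myeloid genes did not change between groups. The simulation therefore does not cover a shift of the denominator. It also gave every gene the same narrow spread and planted changes only in more abundant genes. A spread as wide as that of Nlrp3 in the RalAB cKO (SD 21.7 at a mean of 17.8 CPM) is not covered either. DESeq2 1.42.0 was an alternative. The 10 genes, the lists and the tests were chosen with earlier results of these data known. Named genes are the 10, up to 4 called genes with the smallest p per list (2 abundant ones where none was called), and the 6 most alike. Cx3cl1 and the genes named as below the count limit fall outside this rule and were chosen after their values were seen. Mouse numbers did not pair the libraries (correlations of same-numbered deviations -0.198 to 0.175). Libraries of a group differed beyond counting error (chi-square per degree of freedom 9.09 to 39.5), so none was a duplicate. TPM was used only for levels between genes.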

Additional observations from a re-analysis of the deposited data

Results flagged for a closer look

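Within each genotype, 60 sets of 4 values were looked at (10 genes, 3 groups, CPM and counts per 1000 myeloid counts) for a single mouse far from the other 3, and chance flags about 1 in 20 such sets. In 2 of them a mouse stood out, RalA cKO mouse 4 in each case. Its Cd83 level was 3.06 CPM, while the other RalA cKO mice lay between 4.626 and 4.864 CPM. Its Ccl3 level was 14.78 per 1000 myeloid counts, while the others lay between 18.56 and 19.15. Leaving out this mouse changed no per-library call of Cd83 or Ccl3. Per myeloid count, it ended the call of Cd83 in the RalAB cKO against control and that of Cd14 in the RalA cKO against control.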

How the results depend on the processing

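Per library, the counts of called genes were 0, 8 and 8 of 9 (in the order RalA cKO versus control, RalAB cKO versus control and between the mutants). They became 1 in the first comparison without control 1 and RalAB cKO 1 together, and 5 in the second when only the 2 groups compared were fitted, which ended the calls of Tnf, Nlrp3 and Cd83. The second count was 6 without RalAB cKO 4 and 9 of 10 tested without control 3. It was 7 with limma-voom, 9 with DESeq2 and 7 of 10 tested without the count limit. The third was 7 with limma-voom and 9 with DESeq2. Leaving out 1 library gave 0 to 1 in the first comparison. Its Cd83 value ran from -0.88 to 0.03. No per-library value of the other comparisons changed sign in any alternative. With the mouse number as a replicate block the counts were 0, 8 and 9, as Nlrp3 was lost (adjusted p = 0.0509) and Il1a gained (0.0422) against control.
Per myeloid count, the called genes were 1, 5 and 1. In the second comparison they were 3 with a pseudocount of 2 and 3 without both libraries. In the third they were 7 over homeostatic genes, 3 with the replicate block and 4 without both libraries. Leaving out 1 library gave 0 to 1, 1 to 6 and 0 to 4. In RalA cKO against control, values without a call changed sign. They were -0.01 (Tnf), -0.04 (Ccl3) and -0.04 (Nlrp3) over homeostatic genes, -0.39 (Tnf), -0.29 (Ccl3), -0.12 (Ccl6) and -0.06 (Nlrp3) without both libraries, and -0.15 (Tnf), 0.01 (Il1a), -0.03 (Ccl3) and 0.00 (Nlrp3) with edgeR. Leaving out 1 library, they ran from -0.39 to 0.58 (Tnf), -0.51 to 0.47 (Il1a), -0.29 to 0.33 (Ccl3), -0.50 to 0.17 (Ccl4), -0.12 to 1.29 (Ccl6), -0.46 to 0.21 (Tlr2) and -0.12 to 0.46 (Nlrp3). With a pseudocount of 2, Il1a was 0.04, -0.02 and -0.06 in the 3 comparisons, and -0.25 in the second without both libraries. In the second and in the third comparison, leaving out 1 library, Il1a ran from -0.36 to 0.52 and -0.43 to 0.58, and Nlrp3 from -0.32 to 0.71 and -0.46 to 0.57. The causes were not tested. Il1b, at 0 to 7 counts in the 8 control and RalA cKO libraries, is limited by depth.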
